A study of Mus musculus with 6 samples.

Results

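The genes described here encode the major histocompatibility complex (MHC) class I molecules of the mouse and the transporter that supplies them with peptides. They are 10 genes chosen by name: the heavy chains *H2-K1*, *H2-D1*, *H2-Q4*, *H2-Q6*, *H2-Q7*, *H2-T22*, *H2-T23* and *H2-M3*, their shared light chain *B2m*, and the transporter subunit *Tap1*. All 10 were found among the 46078 genes of the count tables, and all 10 were among the 15554 genes kept by a filter on low counts and tested. Bulk RNA was sequenced from 3 infarcts and from 3 pieces of contralateral cortex of wild-type C57BL/6J male mice aged 3 months, collected 7 weeks after stroke. Stroke was made by permanent occlusion of the distal middle cerebral artery followed by hypoxia (the DH model), and neither region is labelled with a drug treatment. The infarct border was judged by eye, and the labels do not link an infarct to the cortex of the same mouse. The labels also do not state that the libraries of a region come from separate mice, so a p here measures the spread between samples.

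Infarct libraries 1, 2 and 3 held 12146959, 12507336 and 13427057 counts assigned to genes, and contralateral libraries 1, 2 and 3 held 19933962, 16610299 and 11943570. Levels are given as counts per 1000000 (CPM) after scaling of each library with the trimmed mean of M values, and fold changes compare infarct with contralateral cortex. Adjusted p values come from edgeR's two-sided quasi-likelihood test with Benjamini-Hochberg adjustment over all tested genes, and a gene was called when the adjusted p was under 0.05 and the log2 fold change was beyond 1. Errors of means are SD over 3 libraries, and errors of log2 fold changes are standard errors of the fit. The dissected tissues differed in their markers, since all 8 neuronal markers were called lower in infarcts and all 7 macrophage and monocyte markers were called higher. Over all tested genes, 20.9% were called lower and 25.7% higher. In bulk tissue, fewer cells of a type and less RNA per cell cannot be told apart.

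MHC class I molecules display peptides from inside the cell to CD8 T cells and natural killer (NK) cells. A polymorphic heavy chain pairs with β2-microglobulin in the endoplasmic reticulum, where the TAP transporter delivers peptides cut by the proteasome and a set of chaperones loads them. Healthy neurons are known for low class I levels, whereas interferons raise class I transcription in many cell types through the factor IRF1 and the transactivator NLRC5.

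Every member was higher in infarcts than in contralateral cortex. By the call rule, 10 of 10 members were higher and 0 were lower, where 25.7% of all tested genes were called higher. In all 10, each infarct library lay above each contralateral library, a pattern found in 37.6% of tested genes. Their median log2 fold change was 4.82, against 0.03 over all tested genes. The summed level of the 10 genes was 3257, 2477 and 2117 CPM in infarcts 1, 2 and 3 and 112, 101 and 139.7 CPM in contralateral cortices 1, 2 and 3. As a share of gene counts with its 95% Wilson interval, the members took 0.337% (0.333 to 0.340%) of infarct 1, 0.270% (0.267 to 0.273%) of infarct 2 and 0.231% (0.228 to 0.234%) of infarct 3. The same share was 0.0108% (0.0103 to 0.0112%) of contralateral cortex 1, 0.00936% (0.00890 to 0.00983%) of contralateral cortex 2 and 0.0127% (0.0121 to 0.0133%) of contralateral cortex 3. Infarct 1 has the largest share and infarct 3 the smallest. Intervals and floors given here cover counting error only.

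*H2-K1* and *H2-D1* encode the classical heavy chains, which present peptides to CD8 T cells. Ensembl lists them as ENSMUSG00000061232 and ENSMUSG00000073411. *H2-K1* measured 511, 326 and 274 CPM in infarcts 1, 2 and 3 and 7.16, 8.66 and 11.3 CPM in contralateral cortices 1, 2 and 3. That is a log2 fold change of 5.37 (SE 0.30, 41.2-fold) with an edgeR adjusted p of 8e-07. Infarct 1 was the highest and infarct 3 the lowest of the infarcts, and even infarct 3 held 24.3 times the level of the highest contralateral library. For *H2-D1* the infarcts held 733, 614 and 519.7 CPM and the contralateral cortices 15.5, 12.4 and 19.6 CPM. The fit gave a log2 fold change of 5.30 (SE 0.24, 39.5-fold) with an edgeR adjusted p of 2.18e-07. Infarct 1 was again the highest and infarct 3 the lowest, and the regions are 26.6-fold apart at their nearest libraries. The ratio of *H2-K1* to *H2-D1* counts was 0.584 ± 0.0971 in the infarcts against 0.579 ± 0.119 in contralateral cortices (exact permutation test, two-sided, p = 1.0, n = 3 against 3), and the libraries of the regions overlap.

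*H2-Q4*, *H2-Q6* and *H2-Q7* belong to the Qa region of nonclassical class I genes, and the products of *H2-Q6* and *H2-Q7* are known as Qa-2. *H2-Q4* measured 56.6, 48.2 and 38.0 CPM in the infarcts against 1.83, 1.89 and 1.29 CPM in contralateral cortices, which gives a log2 fold change of 4.80 (SE 0.24, 27.9-fold) with an edgeR adjusted p of 3.37e-07. The infarct values lie closer together than those of *H2-K1*, and the regions do not overlap. *H2-Q6* measured 62.0, 47.8 and 32.8 CPM in the infarcts against 0.888, 1.17 and 0.369 CPM in contralateral cortices, the latter resting on 17, 18 and 4 counts. It had the largest change of the members, a log2 fold change of 5.80 (SE 0.38, 55.7-fold) with an edgeR adjusted p of 1.6e-06. When contralateral cortex 1 was left out, the log2 fold change of *H2-Q7* (5.96) was above that of *H2-Q6* (5.84). *H2-Q7*, which had the lowest per-length level of the members, measured 17.1, 18.4 and 8.60 CPM in the infarcts against 0.522, 0.326 and 0.0923 CPM in contralateral cortices. Its 10, 5 and 1 contralateral counts leave the widest error of the members, in a log2 fold change of 5.38 (SE 0.47, 41.6-fold) with an edgeR adjusted p of 9.34e-06. Infarct 3 was lowest of the infarcts for all of these genes, and contralateral cortex 3 lowest of its region.

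*H2-T22*, *H2-T23* and *H2-M3* lie farther along the H2 complex and serve other ligands. H2-T22 is known as a ligand of some γδ T cell receptors, Qa-1, the product of *H2-T23*, presents leader peptides of other class I chains to the NK receptor CD94-NKG2A, and H2-M3 presents peptides that begin with formyl methionine. *H2-T22* measured 79.3, 35.7 and 41.4 CPM in the infarcts against 8.36, 9.90 and 12.2 CPM in contralateral cortices. The test gave a log2 fold change of 2.37 (SE 0.32, 5.15-fold) with an edgeR adjusted p of 0.000205, the smallest change among the members. Infarct 1 stands well above the other infarcts, and the nearest libraries of the regions differ only 2.93-fold. *H2-T23* measured 34.7, 22.2 and 21.2 CPM in the infarcts against 1.41, 1.43 and 1.20 CPM in contralateral cortices, which gives a log2 fold change of 4.25 (SE 0.27, 19.1-fold) with an edgeR adjusted p of 1.04e-06. Its contralateral libraries are nearly level, and infarct 1 is again the highest. *H2-M3* measured 14.3, 16.4 and 10.6 CPM in the infarcts against 1.41, 2.08 and 2.21 CPM in contralateral cortices, which gives a log2 fold change of 2.88 (SE 0.28, 7.34-fold) with an edgeR adjusted p of 1.36e-05. Here infarct 2 was the highest, and the regions stay 4.81-fold apart at their nearest libraries.

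*B2m*, the light chain of all class I molecules named so far, had the highest per-length level of the members. It measured 1667, 1306 and 1126 CPM in the infarcts against 72.8, 61.3 and 89.9 CPM in contralateral cortices. The fit gave a log2 fold change of 4.19 (SE 0.24, 18.3-fold) with an edgeR adjusted p of 5.23e-07. By level per length, *B2m* ranked 15 among the genes of the tables in the infarcts against 333 in contralateral cortices. *Tap1*, which with *Tap2* forms the peptide transporter, measured 82.7, 42.6 and 44.7 CPM in the infarcts against 2.194, 2.02 and 1.66 CPM in contralateral cortices. That amounts to a log2 fold change of 4.83 (SE 0.32, 28.5-fold) with an edgeR adjusted p of 1.52e-06. Infarct 1 held the highest level, well above the other infarcts, and the lowest infarct was still 19.4 times the highest contralateral library.

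**Figure D1:**
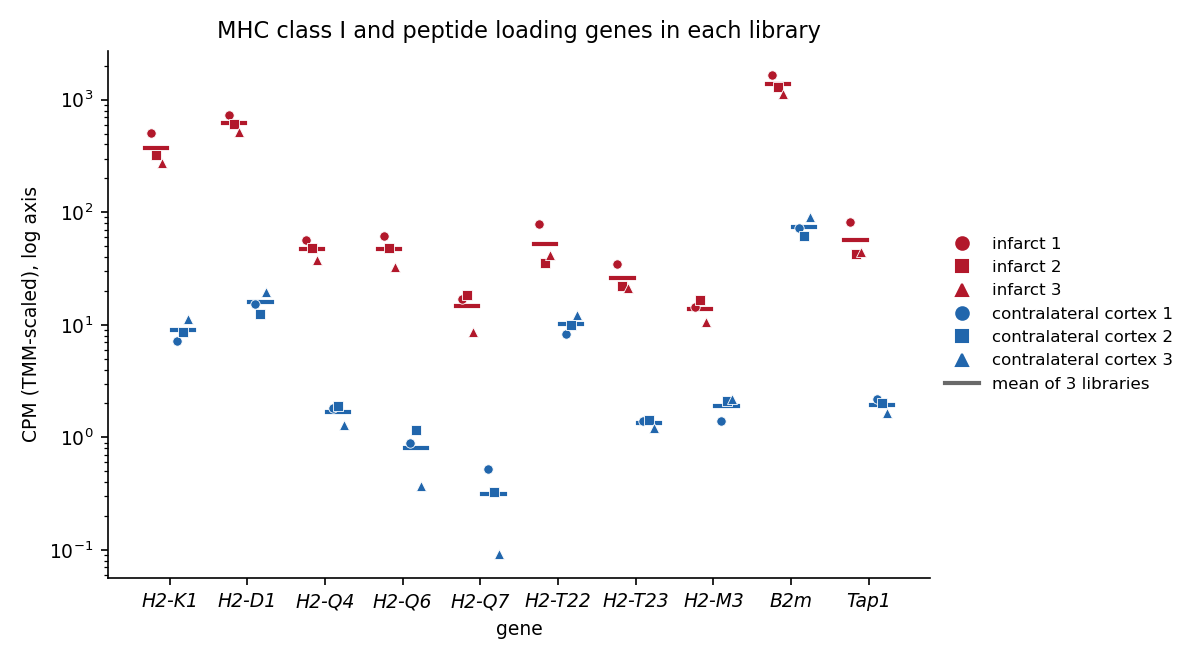
Level of each of the 10 genes in every library, in CPM on a log axis, with infarcts in red, contralateral cortices in blue, 1 point per library and a line at the mean of 3 libraries. Red and blue points are apart for every gene, by the least for *H2-T22* (2.93-fold between the nearest libraries) and by the most for *H2-Q6* (28.0-fold).

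To compare levels between genes, CPM was divided by the length of each gene's merged exons in kilobases. In infarcts the order of this per-length level was led by *B2m* at 1589 ± 319.9 CPM per kb, then *H2-D1* at 241 ± 41.5 and *H2-K1* at 126 ± 42.4 CPM per kb, whose library values do not overlap with their neighbors. *H2-Q6* at 22.8 ± 6.99, *H2-Q4* at 18.3 ± 3.58 and *H2-T22* at 15.3 ± 6.94 CPM per kb came next, and each overlaps with its neighbor in the order. *Tap1* at 10.3 ± 4.12, *H2-M3* at 9.60 ± 2.04 and *H2-T23* at 9.02 ± 2.60 CPM per kb also could not be separated by their spread. *H2-Q7* was last at 3.45 ± 1.25 CPM per kb, below all libraries of *H2-T23*. In contralateral cortices *B2m* led the per-length order at 86.8 ± 16.7 CPM per kb, followed by *H2-D1* at 6.13 ± 1.40, with *H2-K1* at 3.07 ± 0.707 and *H2-T22* at 2.97 ± 0.564 CPM per kb overlapping each other. There *H2-M3* at 1.32 ± 0.300 and *H2-Q4* at 0.643 ± 0.126 CPM per kb were separate from their neighbors, whereas *H2-T23* at 0.466 ± 0.0445, *H2-Q6* at 0.388 ± 0.195 and *Tap1* at 0.358 ± 0.0496 CPM per kb overlapped. *H2-Q7* was again last, at 0.0735 ± 0.0505 CPM per kb. *H2-T22* overlapped with *H2-K1* in contralateral cortex and lay below it in infarcts.

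The composition of class I heavy chain transcripts can be read inside each library, free of scaling between libraries. It is given as the share of each gene in the summed counts of 23 class I heavy chain genes and pseudogenes of the H2 complex. These are the genes with counts that were taken by their H2 symbols, and any class I genes with other names are not included. *H2-D1* made up 45.9, 51.7 and 51.7% of these counts in infarcts 1, 2 and 3, against 27.7, 21.7 and 30.8% in contralateral cortices. *H2-K1* made up 32.0, 27.4 and 27.2% in the infarcts against 12.8, 15.2 and 17.7% in contralateral cortices. Both classical chains thus held a larger share in every infarct than in any contralateral cortex. *H2-T22* went the other way, with 4.96, 3.01 and 4.11% in the infarcts against 15.0, 17.4 and 19.2% in contralateral cortices. *H2-M3* held 1.11 ± 0.248% in the infarcts against 3.23 ± 0.608% in contralateral cortices, without overlap. So these genes were higher in infarcts in CPM while their part of the class I total was smaller. *H2-Q6* held 3.72 ± 0.403% in infarcts against 1.41 ± 0.755%, and *H2-Q4* 3.80 ± 0.261% against 2.88 ± 0.729%. Among the 8 heavy chain members alone the *H2-Q4* difference turned around, to -0.188 percentage points, and without contralateral cortex 3 it was 0.498 in place of 0.919 points. In the same 8 genes the differences were 8.69 points for *H2-K1*, 14.3 for *H2-D1*, -20.4 for *H2-T22*, -1.19 for *H2-T23* and -3.46 for *H2-M3*, against 13.6, 23.01, -13.2, -0.258 and -2.11 among all class I counts. *H2-Q7* (1.16 ± 0.356% against 0.551 ± 0.396%, exact permutation p = 0.2) and *H2-T23* (2.05 ± 0.159% against 2.31 ± 0.365%, exact permutation p = 0.3) overlapped between regions. Leaving out 1 library moved the *H2-T23* difference between -0.148 and -0.469 points, and the *H2-Q7* difference of 0.609 points to 0.406 without contralateral cortex 3. With length-scaled counts these differences were -0.151 points for *H2-T23* and 0.386 points for *H2-Q7*, and the *H2-M3* difference of -2.11 points was larger in size.

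The other class I genes and pseudogenes together made up 5.57, 5.01 and 5.89% of class I counts in the infarcts against 33.6, 33.6 and 24.1% in contralateral cortices, where most of them were *H2-T24*. The differences of *H2-K1*, *H2-D1*, *H2-Q4*, *H2-Q6*, *H2-T22*, *H2-M3* and the other genes each reached p = 0.1 in a two-sided exact permutation test, the smallest p that 3 against 3 libraries allow, so none could pass 0.05. Over the 16 ratios and shares tested in this way, 12 reached that p, and their Benjamini-Hochberg adjusted exact p is 0.133. *B2m* counts per class I heavy chain count were 1.09 ± 0.0397 in the infarcts against 1.27 ± 0.173 in contralateral cortices (exact permutation p = 0.3). Against the classical chains alone and per length, *B2m* stood at 4.34 ± 0.108 times *H2-K1* plus *H2-D1* in the infarcts against 9.47 ± 0.494 times in contralateral cortices (exact permutation p = 0.1). This ratio leaves out the other heavy chains, and against all of them the regions overlapped.

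**Figure D2:**
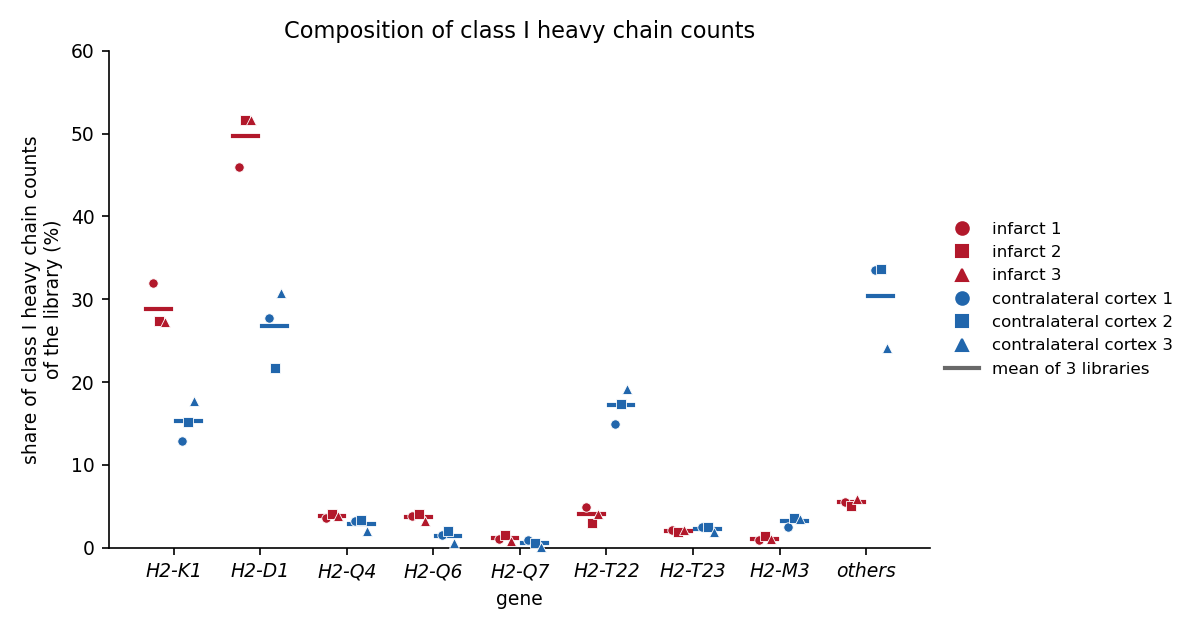
Share of each gene in the class I heavy chain counts of its library, in percent, with infarcts in red, contralateral cortices in blue, 1 point per library and a line at the mean of 3 libraries; "others" sums the class I heavy chain genes and pseudogenes not named on the axis. *H2-D1* averaged 49.8% in the infarcts against 26.8% in contralateral cortices, and *H2-T22* 4.03% and 17.2%.

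Peptide loading was followed over 9 genes, *B2m* and *Tap1* included, of which 8 were called higher, 0 lower and 1 was not called, with a median log2 fold change of 3.29. *Tap2* measured 29.6, 18.0 and 16.6 CPM in the infarcts against 1.41, 2.08 and 2.03 CPM in contralateral cortices, which gives a log2 fold change of 3.55 (SE 0.30, 11.7-fold) with an edgeR adjusted p of 6.26e-06. The per-length ratio of *Tap1* to *Tap2* was 1.93, 1.63 and 1.86 in infarcts 1, 2 and 3, against 1.07, 0.669 and 0.565 in contralateral cortices (exact permutation p = 0.1). *Tap1* thus stood above *Tap2* in the infarcts and in contralateral cortex 1, and below it in contralateral cortices 2 and 3. *Tapbp* encodes tapasin, which bridges class I to the transporter. It measured 486, 314 and 278 CPM in the infarcts against 30.1, 27.1 and 22.4 CPM in contralateral cortices, which gives a log2 fold change of 3.76 (SE 0.25, 13.5-fold) with an edgeR adjusted p of 1.31e-06. *Erap1*, an aminopeptidase that trims peptides in the endoplasmic reticulum, measured 314, 263 and 204 CPM in the infarcts against 27.8, 29.3 and 22.8 CPM in contralateral cortices, which gives a log2 fold change of 3.29 (SE 0.20, 9.76-fold) with an edgeR adjusted p of 7.94e-07. *Tapbpl*, the tapasin-related peptide editor, reached 7.31 ± 1.16 CPM against 1.78 ± 0.711 CPM, with a log2 fold change of 2.07.

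The general chaperones of the endoplasmic reticulum moved less. *Pdia3*, which encodes the oxidoreductase ERp57 of the loading complex, had a log2 fold change of 1.68 (497 ± 73.8 against 155 ± 17.2 CPM), and calreticulin, *Calr*, one of 1.39 (526 ± 144 against 201 ± 29.4 CPM). Calnexin, *Canx*, measured 758, 627 and 632 CPM in the infarcts against 397, 375 and 472 CPM in contralateral cortices. The fitted log2 fold change of 0.70 (SE 0.17, edgeR adjusted p = 0.00435) was below the fold threshold, although its regions did not overlap. By level per length in infarcts the leading genes of the list were *B2m*, then *Calr* at 182 ± 49.9 and *Pdia3* at 158 ± 23.5 CPM per kb, whose ranges overlap.

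Peptides for class I are cut by the proteasome, whose constitutive catalytic subunits *Psmb6*, *Psmb7* and *Psmb5* are replaced by *Psmb9*, *Psmb10* and *Psmb8* in the immunoproteasome, while *Psme1* and *Psme2* form the PA28 activator. All 5 immunoproteasome and PA28 genes were called higher, with a median log2 fold change of 2.34. Leaving out infarct 1 or contralateral cortex 2 left 4 called. *Psmb8* held 78, 44 and 72 counts in the infarcts against 0, 3 and 1 in contralateral cortices, which after scaling is a ratio of 53.9 (95% counting interval 20.7 to 199.7). *Psmb9* held 113, 111 and 69 counts in the infarcts against 6, 7 and 0 in contralateral cortices, and the fit gave a log2 fold change of 4.65 (SE 0.56, 25.2-fold) with an edgeR adjusted p of 6.51e-05. Both are thus near the detection limit outside the infarct. *Psmb10* measured 32.0, 23.4 and 19.6 CPM in the infarcts against 12.5, 9.70 and 12.4 CPM in contralateral cortices, a smaller log2 fold change of 1.12 (SE 0.22, edgeR adjusted p = 0.00143). *Psme1* reached 71.8 ± 21.3 against 14.2 ± 2.06 CPM, a log2 fold change of 2.34, and *Psme2* 63.5 ± 11.01 against 12.7 ± 4.42 CPM, one of 2.31. By level per length in infarcts, *Psme2* at 36.0 ± 6.24 and *Psme1* at 32.5 ± 9.64 CPM per kb overlap at the top of the list and *Psmb10* follows at 14.7 ± 3.74 CPM per kb.

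Of the 3 constitutive counterparts 0 were called with edgeR, DESeq2 or limma voom, although 1, *Psmb6*, had an unadjusted edgeR p under 0.05, and their median log2 fold change was -0.06. *Psmb5* measured 9.49 ± 2.20 CPM in the infarcts against 10.2 ± 0.736 CPM in contralateral cortices, and *Psmb7* 28.8 ± 7.92 and 30.0 ± 3.62 CPM, with overlapping libraries. *Psmb6* measured 20.4 ± 3.97 and 12.7 ± 2.38 CPM without overlap, and its log2 fold change of 0.69 (edgeR adjusted p = 0.0182) passed the p threshold but not the fold threshold. Ratios of inducible to constitutive transcripts were also taken within each library. *Psmb8* per *Psmb5* count was 0.629, 0.454 and 0.429 in the infarcts against 0, 0.0207 and 0.00847 in contralateral cortices. *Psmb9* per *Psmb6* count was 0.390, 0.514 and 0.211 against 0.0238, 0.0449 and 0 in the same order of libraries. *Psmb10* per *Psmb7* count was 0.852, 1.05 and 0.738 against 0.484, 0.299 and 0.392. All of these ratios were higher in every infarct than in any contralateral cortex (exact permutation p = 0.1 each), and *Psmb10* had the highest ratio in contralateral cortex.

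The regulators of class I transcription were split. Of 9 genes, 5 were called higher, 0 lower and 4 were not called, with a median log2 fold change of 1.88. *Nlrc5*, the class I transactivator, measured 63.7, 44.8 and 32.1 CPM in the infarcts against 0.418, 1.30 and 0.461 CPM in contralateral cortices. Its change was the largest of the list, a log2 fold change of 5.99 (SE 0.45, 63.4-fold) with an edgeR adjusted p of 6.59e-06. *Irf1*, an interferon-induced activator that binds class I promoters, measured 59.4, 35.2 and 30.0 CPM in the infarcts against 2.77, 2.93 and 4.15 CPM in contralateral cortices, which gives a log2 fold change of 3.68 (SE 0.31, 12.8-fold) with an edgeR adjusted p of 6.79e-06. As for most members, infarct 1 is the highest library of both genes. *Irf9* and *Stat2*, which act together in type I interferon signaling, had log2 fold changes of 2.61 and 1.88. The RFX subunits, which recruit NLRC5 to DNA, were not called, with log2 fold changes of 0.33 for *Rfx5*, 0.79 for *Rfxank* and -0.86 for *Rfxap* (edgeR adjusted p = 0.00558). Without infarct 3, 1 regulator was called lower. *Irf2* was just under the fold threshold, at 0.97 (edgeR adjusted p = 0.00144). Per length, *Irf1* stood at 10.5 ± 3.94 and *Irf9* at 8.69 ± 1.05 CPM per kb in infarcts, and they overlapped.

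Interferons act through receptors and Janus kinases. Of the 9 genes listed, 7 were tested, of which 6 were called higher and 1 was not called, with a median log2 fold change of 1.19. Leaving out infarct 1 or contralateral cortex 1 left 5 called higher, and a test against a fold change of 2 (glmTreat) left 3. The ligands were scarce. Interferon γ, *Ifng*, had 2, 6 and 0 counts in the infarcts against 0, 0 and 0 in contralateral cortices, and *Ifnb1* had 0 counts in every library. A count of 0 allows up to 3 counts in a library, so a low level of *Ifnb1* was not detectable at this depth. *Ifngr1*, a chain of the interferon γ receptor, measured 135, 89.9 and 77.9 CPM in the infarcts against 10.2, 9.18 and 13.7 CPM in contralateral cortices, which gives a log2 fold change of 3.20 (SE 0.25, 9.20-fold) with an edgeR adjusted p of 4.29e-06. *Ifngr2* had a log2 fold change of 1.18, and the type I receptor chains *Ifnar1* and *Ifnar2* of 1.19 and 2.74. Among the kinases, *Tyk2* reached 1.94 and *Jak2* 1.04, while *Jak1*, with the highest per-length level of the list and 360.2 ± 61.1 CPM in infarcts against 227 ± 14.7 CPM, was not called at 0.66 (edgeR adjusted p = 0.00584). Per length, *Jak1* at 49.8 ± 8.45, *Ifngr1* at 35.5 ± 10.6 and *Jak2* at 22.9 ± 4.10 CPM per kb were the leading genes of the list in infarcts, each overlapping with the next.

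Class I genes of the H2 complex were taken by their H2 symbols, and any with other names were not counted. By these symbols, 16 further protein-coding class I heavy chain genes are not among the members. Only 4 of them had enough counts to be tested, 1 was called higher, 1 lower and 2 were not called, with a median log2 fold change of 0.47. Without infarct 2, and with DESeq2, 2 were called higher. The gene called higher was *H2-M2*, a nonclassical class I gene on chromosome 17 from 37480851 to 37483552. It held 622, 377 and 374 counts in the infarcts against 2, 0 and 1 in contralateral cortices, or 49.5, 27.7 and 25.5 CPM and 0.104, 0 and 0.0923 CPM. Pooled over libraries this is a ratio of 508 (95% counting interval 174 to 2468). Per length, *H2-M2* reached 22.1 ± 8.57 CPM per kb in infarcts, overlapping with *H2-Q6*, whereas in contralateral cortex it was close to absent. No 75-base stretch of its exons occurs in another gene. *H2-M5* was called lower, with 7, 8 and 1 counts in the infarcts against 48, 34 and 18 in contralateral cortices, which gives a log2 fold change of -2.41 (SE 0.57, 0.188-fold) with an edgeR adjusted p of 0.00417. *H2-T24* was not called and held 29.6, 17.9 and 24.7 CPM in the infarcts against 13.4, 13.8 and 11.2 CPM in contralateral cortices, which gives a log2 fold change of 0.91 (edgeR adjusted p = 0.00403), and *H2-Q1* stood at 0.03.

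Of these 16 genes, 7 had 0 counts in every library, among them *H2-M1*, *H2-M9* and *H2-M11*. *H2-Q10*, known for its secreted product from liver, had 3, 10 and 9 counts in the infarcts against 0, 0 and 0 in contralateral cortices, and shares stretches with *H2-Q7*. Class I-like genes outside the H2 complex number 7 in the list, of which 5 were tested and 5 were called higher, with a median log2 fold change of 3.09. *Fcgrt*, the heavy chain of the neonatal Fc receptor, measured 95.9, 74.7 and 77.0 CPM in the infarcts against 9.98, 7.75 and 11.4 CPM in contralateral cortices, which gives a log2 fold change of 3.09 (SE 0.20, 8.53-fold) with an edgeR adjusted p of 1.04e-06. It led the list per length in infarcts at 39.3 ± 5.54 CPM per kb, ahead of *Hfe*, a regulator of iron uptake, at 11.8 ± 1.59 and *Mr1*, which presents vitamin B metabolites, at 9.51 ± 1.16 CPM per kb, whose libraries do not overlap. *Mr1* had a log2 fold change of 2.57 and *Hfe* of 3.62. *Cd1d1*, which presents lipids, held 64, 78 and 32 counts in the infarcts against 17, 8 and 4 in contralateral cortices, which gives a log2 fold change of 2.79. *Procr*, the endothelial protein C receptor, held 66, 41 and 42 against 2, 2 and 1 counts, a ratio of 33.1 (95% counting interval 13.9 to 103). *Cd1d2* and *Azgp1* had at most 1 count in any library.

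Receptors that recognize class I were also measured, from 19 listed genes of which 16 are in the tables and 10 passed the filter. All 10 were called higher, with a median log2 fold change of 7.49, or 4.67 when the 9 genes with 3 counts or fewer in each contralateral library are set at 3 counts per library. A gene absent from contralateral cortex could pass the filter only by being high in infarcts, so the count is a description. *Cd8a*, the coreceptor chain of CD8 T cells, held 183, 152 and 66 counts in the infarcts against 0, 0 and 0 in contralateral cortices, at least 48.1-fold higher against 3 counts per library. Its partner *Cd8b1* held 288, 185 and 100 against 1, 1 and 0 counts, a ratio of 318 (95% counting interval 87.7 to 2634). *Klrd1* and *Klrc1* encode CD94 and NKG2A, the receptor for Qa-1. *Klrd1* held 50, 94 and 40 counts in the infarcts against 3, 0 and 0 in contralateral cortices, and *Klrc1* 91, 80 and 43 against 0, 0 and 1. Infarct 2 led for *Klrd1* and infarct 1 for *Klrc1*. Pooled over libraries, *Klrd1* had a ratio of 68.1 (95% counting interval 22.9 to 333) and *Klrc1* a ratio of 238 (95% counting interval 42.2 to 9430.3).

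Several Ly49 receptors of NK cells bind classical class I, and of the listed Ly49 genes *Klra2*, *Klra3*, *Klra7* and *Klra8* were tested. Not every Ly49 receptor binds class I or is confined to NK cells, and binding was not examined here. *Klra3* held 87, 81 and 45 counts in the infarcts against 0, 0 and 0 in contralateral cortices, at least 25.4-fold higher. *Klra2*, with the smallest fitted change of the list, held 47, 46 and 25 against 2, 0 and 0 counts, a ratio of 65.5 (95% counting interval 17.7 to 547). *Klrb1c*, the NK1.1 antigen, was listed with these NK genes although it is not known to bind class I, and held 115, 97 and 58 against 0, 0 and 0 counts, at least 32.2-fold higher. The leading receptor by level per length in infarcts was *Pirb*, an inhibitory receptor for class I on myeloid and B cells, at 16.3 ± 3.26 CPM per kb, followed by *Cd8b1* at 9.74 ± 5.46 and *Klra3* at 4.29 ± 1.62 CPM per kb, each overlapping with the next. *Pirb* measured 89.4, 66.7 and 62.3 CPM in the infarcts against 0.575, 0.716 and 0.554 CPM in contralateral cortices, which gives a log2 fold change of 6.86 (SE 0.25, 116-fold) with an edgeR adjusted p of 1.64e-07. Its exons share 26.9% of their 75-base windows with related genes, so its level is less certain. NKG2D, the product of *Klrk1*, recognizes class I-like stress ligands. In that list of 6 genes 3 were tested, 2 were called higher and 1 was not called, with a median of 6.75, or 4.68 at 3 counts per library. As for the receptors, the count is a description, since 2 of the tested genes had 3 counts or fewer in each contralateral library. *Klrk1* held 88, 78 and 60 against 2, 0 and 0 counts, a ratio of 125 (95% counting interval 34.3 to 1043).

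The ligand *Ulbp1* held 102, 65 and 48 counts in the infarcts against 0, 0 and 0 in contralateral cortices, at least 25.7-fold higher, whereas *H60b* held 15, 17 and 5 against 13, 13 and 11 counts and was not called. The infarcts differed in their member levels. Infarct 1 was the highest for 8 members and infarct 2 for 2, while infarct 3 was the lowest for 8 and infarct 2 for 2. Among contralateral cortices, library 3 had the highest summed member level and library 2 the lowest.

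Markers of the cells that the tissue may hold moved with the same contrast, and their part in the results was not tested. The 8 microglial markers gave 4 called higher and 4 not called, with a summed level of 1417, 1269.9 and 1281 CPM in infarcts 1, 2 and 3 and 420.5, 384 and 470.3 CPM in contralateral cortices, led by *Csf1r*. All 7 macrophage and monocyte markers were called higher, at 8932, 7722 and 5422 CPM against 38.8, 29.2 and 44.2 CPM, with *Lyz2* the most abundant. The macrophage sum was highest in infarct 1 and lowest in infarct 3, as the summed member level was. Dendritic cell markers were called higher for 5 of 7, at 479, 341 and 305 CPM against 27.0, 27.2 and 25.3 CPM, of which *Itgax* made up 334 ± 85.4 against 0.621 ± 0.489 CPM. The other 2, *Flt3* and *Zbtb46*, had log2 fold changes of -0.54 and -0.39 and were not called. T cell markers were called higher for 7 of 7 tested among 8, at 167, 68.7 and 44.4 CPM against 2.51, 3.58 and 2.77 CPM, with *Lck* most abundant and *Cd3d*, *Cd2* and *Cd8a* at 0 in contralateral cortex. NK cell markers were called higher for 6 of 6 tested among 7, at 48.3, 34.7 and 20.2 CPM against 0.366, 0 and 0.0923 CPM. By mean level *Nkg7* was most abundant in infarcts and *Klrd1* in contralateral cortex, where *Klrb1c*, *Eomes* and *Gzma* were at 0. *Cd8a*, *Cd8b1*, *Klrb1c*, *Klrd1* and *Klrk1* stand both in these lists and in those of class I receptors and NKG2D. Among the tested markers, 1 dendritic cell, 4 T cell and 6 NK cell genes had 3 counts or fewer in each contralateral library. Such genes could pass the filter only by being high in infarcts, so their calls are descriptions.

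All 5 B cell markers were called higher, at 295, 140.1 and 117 CPM against 0.366, 0.326 and 0.646 CPM, with *Ms4a1* most abundant. Plasma cell markers were called higher for 5 of 5 tested among 6, at 2405, 1088 and 422 CPM against 108, 95.8 and 114 CPM. Of the tested genes, 3 B cell markers and 1 plasma cell marker had 3 counts or fewer in each contralateral library, so their calls are also descriptions. By mean level *Jchain* was most abundant in infarcts. In contralateral cortices *Xbp1* was, at 102 CPM against 2.13 CPM for *Jchain*. Lymphoid sums therefore place infarct 1 above infarcts 2 and 3, as does the summed member level. The dendritic cell, fibroblast and endothelial sums were also highest in infarct 1 and lowest in infarct 3, so this order was shared beyond macrophage and lymphoid lists. Astrocyte, neuronal and oligodendrocyte sums were instead highest in infarct 3. Of 6 fibroblast and meningeal markers 6 were called higher, at 5819.9, 5268 and 4689 CPM against 169, 140.4 and 175 CPM. The list was led by *Col1a2* in infarcts and by *Pdgfra* in contralateral cortices. Of 6 endothelial markers 2 were called higher, at 508, 419.9 and 391 CPM against 311, 355 and 317 CPM. *Cdh5* and *Slco1a4* were level at the top in infarcts, with means of 108 CPM. In contralateral cortices *Slco1a4* led at 123 CPM, against 25.9 CPM for *Cdh5*. For astrocytes 2 of 6 were higher and 1 lower, at 4928, 5281 and 7321 CPM against 13214, 14056 and 13024 CPM, of which *Slc1a2*, the gene called lower, made up 2933 ± 859 against 12297 ± 624 CPM. *Gfap* and *Aqp4* were called higher, with log2 fold changes of 4.81 and 1.68. Neuronal markers were called lower for 8 of 8, at 481, 659.7 and 1259 CPM against 7234, 7728 and 8477 CPM, with *Syt1* most abundant, and with the highest infarct sum in infarct 3. Oligodendrocyte markers were called higher for 3 of 6, at 4103, 4727 and 6691 CPM against 2200.1, 2131 and 2538 CPM. Choroid plexus markers were low, at 5.50, 1.25 and 2.87 CPM against 0.940, 0.651 and 1.11 CPM, with 1 of 2 tested called higher and *Ttr* at 0 in contralateral cortex. Red blood cell markers were called higher for 2 of 2 tested among 4, at 26.0, 7.86 and 8.80 CPM against 3.50, 0.391 and 2.68 CPM, led by *Hbb-bs*.

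Median log2 fold changes of the marker lists were 7.14 for macrophages and monocytes, 6.44 for fibroblasts and meninges, 2.47 for dendritic cells, 1.27 for microglia, 1.06 for oligodendrocytes, 0.59 for endothelium, 0.11 for astrocytes and -3.11 for neurons. With genes at 3 counts or fewer in each contralateral library set at 3 counts per library, the medians were 5.59 for T cells, 4.59 for NK cells, 7.13 for B cells and 5.29 for plasma cells, where the fitted values gave 8.06, 7.34, 8.06 and 6.31. Choroid plexus and red blood cell markers had medians of 1.99 and 2.64.

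The genes whose pattern over the 6 libraries was much like the mean of the members include *Gbp3*, *Itih5*, *Nfkb2* and *Tmod3*. Likeness was the Pearson correlation with the mean standardized log2 level of the 10 members, over 9667 other genes with a mean of at least 10 CPM, and it came to 0.99986 for *Gbp3*, 0.99981 for *Itih5*, 0.99975 for *Nfkb2* and 0.99968 for *Tmod3*. The 6 libraries fall into separate regions, so a gene that differs strongly between them scores high, and 2359 candidates (24.4%) had a correlation above 0.95. The lowest correlation of a member with this mean was 0.96899, where each member is itself part of the mean, so a high value is built in. *Gbp3* measured 85.9, 62.2 and 52.1 CPM in the infarcts against 3.92, 4.17 and 4.43 CPM in contralateral cortices, and so was highest in infarct 1 and lowest in infarct 3. *Itih5* measured 468, 396 and 336 CPM in the infarcts against 70.9, 74.9 and 71.8 CPM in contralateral cortices.

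Of the members, 9 lie on chromosome 17 and *B2m* lies on chromosome 2 (GRCm38, 122147686 to 122153083, plus strand). *H2-K1* (33996017 to 34000347, minus strand) and *Tap1* (34187553 to 34197225, plus strand) are at the end of the complex with the lowest coordinates. *H2-D1* (35262730 to 35267499), *H2-Q4* (35379617 to 35385290), *H2-Q6* (35424850 to 35430055) and *H2-Q7* (35439155 to 35443773) follow on the plus strand. *H2-T23* (36029773 to 36032855) and *H2-T22* (36037128 to 36042747) are on the minus strand, and *H2-M3* (37270220 to 37274484) is on the plus strand. The remaining Ensembl identifiers are ENSMUSG00000035929 for *H2-Q4*, ENSMUSG00000073409 for *H2-Q6*, ENSMUSG00000060550 for *H2-Q7*, ENSMUSG00000056116 for *H2-T22*, ENSMUSG00000067212 for *H2-T23*, ENSMUSG00000016206 for *H2-M3*, ENSMUSG00000060802 for *B2m* and ENSMUSG00000037321 for *Tap1*. *H2-T22*, with the smallest change of the members, lies near *H2-T23*, whose log2 fold change was 4.25.

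Class I genes resemble each other, and reads that fit more than 1 place are tallied apart from the gene counts. Of the 75-base windows in the exons of a gene, the length of the reads, the share that also occurs in a gene elsewhere was 21.1% for *H2-Q6*, 18.5% for *H2-T22* and 16.95% for *H2-Q7*. It was 7.29% for *H2-Q4*, 5.91% for *H2-T23*, 5.56% for *H2-D1* and 3.10% for *H2-K1*, and 0 for *H2-M3*, *B2m* and *Tap1*. Levels of the first 3 are therefore the least certain, and *H2-T22* shares most with *H2-T10*, *H2-Q6* with *H2-Q7*, and *H2-Q7* with *H2-Q10*. The windows stand for single reads, whereas sequencing was paired-end, and the pairing was not taken into account in these shares. Exons on the opposite strand cover 29.4% of the exon bases of *H2-T22* (*A930015D03Rik*), 19.1% of *H2-Q4* (*Gm11131*) and 3.87% of *Tap1* (*Psmb9*). The kit keeps strand, but the strand setting used for counting is not given in the sources used here. *A930015D03Rik* had 0, 0 and 0 counts in the infarcts against 3, 3 and 0 in contralateral cortices, and *Gm11131* had 36, 43 and 33 counts in the infarcts against 4, 5 and 5 in contralateral cortices. In the lists, *Psmb5* shares 32.9% of its windows with other genes, *Klrc1* 25.0%, *Psme2* 22.9%, *Klra8* 19.7% and *Cd1d1* 14.2%. *Rfxank* has 33.8% of its exon bases under exons of another gene, *Rfx5* 26.8%, *Ifng* 25.9%, *Tapbp* 24.9%, *Tap2* 18.5% and *Psmb8* 14.7%, so values of these genes share that doubt.

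The promoters of the members were searched for letters of elements known from class I genes. The windows were the 250 bases before each start in RefSeq promoter sequences (GRCm38.p6), where 10 of 10 members matched with 11 windows, *H2-K1* having a second start. Searched on both strands were GGATTCC, the κB core of enhancer A, the interferon response letters TTTCNNTTC and TTTCNNTTT, the letters TGACG, the core of the X2 box, and CCAAT, the Y box, which in class I promoters reads ATTGG. The letters GGATTCC were found in 4 members (*H2-K1*, *H2-D1*, *H2-Q6* and *H2-Q7*) and in 3.17% of all 32851 windows. TTTCNNTTC was found in 6 members and 6.31% of windows, and TTTCNNTTT in 3 members (*H2-T22*, *H2-T23* and *B2m*) and 9.37% of windows. Either interferon pattern thus stood in 9 members, all but *Tap1*, and in 14.5% of windows. TGACG was found in 8 members and 17.8% of windows, CCAAT in 10 members and 33.8%, and both together in 8 members and 6.12%. Outside the members, *H2-M5*, which was called lower in infarcts, carried GGATTCC and none of the other letters. *H2-M2*, which was called higher, carried TTTCNNTTC, TGACG and CCAAT but not GGATTCC. The letters therefore do not sort these genes by the direction of their change. Class I genes are paralogs whose promoters share descent, so the members are not independent of each other. A match describes letters and is neither a site nor a cause.

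Some distances between these letters recur and others differ between members. From GGATTCC to TTTCACTTC there are 19 bases in *H2-K1*, *H2-D1* and *H2-Q6* and 18 in *H2-Q7*, counted from first letter to first letter. From TTTCACTTC to TGACG there are 49 bases in *H2-K1*, *H2-D1* and *H2-Q7*, where *H2-Q6* has TGACC and *H2-Q4* TGACT. From its interferon letters to TGACG there are 55 bases in *H2-M3*, 60 in *B2m*, 80 in *H2-Q4* and 169 in *H2-T22*. From TGACG to ATTGG there are 25 bases in *H2-K1*, *H2-D1*, *H2-M3* and *B2m* and 24 in *H2-Q7*. In *H2-Q4*, the place of GGATTCC holds GGATTTC. Between *H2-K1* and *H2-D1*, 87 of 98 bases from GGATTCC through ATTGG are the same (88.8%). The stretch of *H2-D1* is not printed because it lies inside an annotated transcript of that gene. The 6 promoters shown are those of members whose stretch lies under no annotated exon, and they include some that keep this order of letters and *H2-T22*, which does not, with capitals marking the matched letters on either strand, 5′ to 3′ on the strand of the gene:
*H2-K1*, chr17:34000349-34000466, minus strand: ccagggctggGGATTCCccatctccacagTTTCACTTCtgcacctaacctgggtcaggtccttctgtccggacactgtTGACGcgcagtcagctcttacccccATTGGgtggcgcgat
*H2-Q6*, chr17:35424669-35424809, plus strand: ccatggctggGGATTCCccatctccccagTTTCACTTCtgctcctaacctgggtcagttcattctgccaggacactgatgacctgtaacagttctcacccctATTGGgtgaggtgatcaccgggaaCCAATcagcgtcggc
*H2-Q7*, chr17:35439014-35439153, plus strand: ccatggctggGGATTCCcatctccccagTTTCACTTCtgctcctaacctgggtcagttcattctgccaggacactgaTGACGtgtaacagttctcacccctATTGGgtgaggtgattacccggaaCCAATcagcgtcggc
*H2-T22*, chr17:36042750-36042953, minus strand: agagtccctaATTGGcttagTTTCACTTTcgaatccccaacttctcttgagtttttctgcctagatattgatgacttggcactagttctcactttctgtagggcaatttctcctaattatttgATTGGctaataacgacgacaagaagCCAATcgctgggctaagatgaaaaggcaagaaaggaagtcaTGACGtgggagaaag
*H2-M3*, chr17:37270095-37270219, plus strand: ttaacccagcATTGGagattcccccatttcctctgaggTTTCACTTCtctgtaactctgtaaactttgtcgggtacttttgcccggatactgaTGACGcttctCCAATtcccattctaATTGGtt
*B2m*, chr2:122147539-122147648, plus strand: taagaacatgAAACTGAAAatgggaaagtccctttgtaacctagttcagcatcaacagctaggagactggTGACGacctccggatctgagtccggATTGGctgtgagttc
Of those printed, *H2-Q6* lacks the TGACG letters, *H2-T22*, *H2-M3* and *B2m* lack GGATTCC, and *B2m* carries its interferon letters on the opposite strand, as AAACTGAAA. In *H2-T22*, and in *H2-Q4*, which is not printed, TGACG comes after ATTGG. These descriptions cover 250 bases before the start and say nothing of elements outside them.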

How the data were processed

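RNA-Seq was measured in 3 infarcts and 3 contralateral cortices. The authors demultiplexed reads with bcl2fastq 2.19, trimmed them with Trimmomatic 0.32, aligned them to GRCm38 with STAR 2.5.2b and made the deposited raw counts per Ensembl gene with htseq-count, without normalization. In each file, 5 htseq-count entries are not genes and were dropped. Identifiers were matched to GENCODE M21 (45229 of 46078 found). In R 4.3.3, edgeR 4.0.16 was used with filterByExpr, TMM scaling and a robust quasi-likelihood fit with region as the only term, and p was adjusted with the Benjamini-Hochberg method over 15554 genes. The biological coefficient of variation was 0.220. A call needed an adjusted p below 0.05 and a log2 fold change beyond 1. Folds against libraries at 0 used a floor of 3 counts per library, and ratios against 1 to 3 counts carry exact 95% intervals. Shares and ratios within libraries were compared with exact two-sided permutation tests. The members and the 9 pathway and 14 marker lists were chosen with earlier results of these data known.

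Named are all 10 members, list genes (per list the 3 most abundant per length in infarcts and the largest and smallest fold changes, others chosen after their values were seen) and genes among the 5 most like the members, by Pearson correlation of log2(CPM + 0.5). Some genes that this rule takes are not reported here. Alternatives were DESeq2 1.42.0, limma 3.58.1 voom, RLE, upper quartile or library total scaling, no filter, at least 10 counts in all libraries, no fold threshold, glmTreat, thinned counts, the replicate block and leaving out each library. Summaries used Python 3.11.15 with SciPy 1.17.1 and pandas 2.3.3, and matplotlib 3.10.9 drew the plots. The edgeR steps were tested on simulated data.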

Additional observations from a re-analysis of the deposited data

How the results depend on the processing

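All 10 members were called higher under each alternative that tested them. *H2-Q6* and *H2-Q7* were not tested with at least 10 counts in every library. Apart from the setting without a fold threshold, which changes no fold, alternatives numbered 16 for 8 members and 15 for *H2-Q6* and *H2-Q7*. Their log2 fold changes ranged from 5.09 to 5.56 (*H2-K1*), 5.15 to 5.50 (*H2-D1*), 4.67 to 4.997 (*H2-Q4*), 5.53 to 6.11 (*H2-Q6*), 5.06 to 5.96 (*H2-Q7*), 1.95 to 2.60 (*H2-T22*), 4.01 to 4.44 (*H2-T23*), 2.67 to 3.08 (*H2-M3*), 4.05 to 4.39 (*B2m*) and 4.47 to 5.02 (*Tap1*). Scaling by library totals shifted the median of all genes by 0.20. With the replicate block, 3945 genes were called higher and 3222 lower, against 3999 and 3256. Across genes, deviations of libraries with the same number correlated at -0.161, 0.0851 and -0.0112, so the numbers were not taken to pair tissues. With at least 10 counts in every library fewer genes are tested, and the number called higher was 3 for the immunoproteasome list, 3 for class I-like genes, 0 for class I receptors, 0 for NKG2D and 0 for other class I genes, where 0 were called lower. Without a fold threshold, 1 constitutive proteasome gene and 2 other class I genes were higher and 1 regulator was lower. With glmTreat, 3 interferon receptor genes and 4 immunoproteasome genes were called. When leaving out a library, 5 to 6 interferon receptor genes (5 without infarct 1 or contralateral cortex 1) and 4 to 5 immunoproteasome genes (4 without infarct 1 or contralateral cortex 2) were called higher. Other class I genes called higher were 2 with DESeq2, 2 with library totals, 2 without a filter and 1 to 2 when leaving out a library (2 without infarct 2). Regulators called lower were 0 to 1 when leaving out a library (1 without infarct 3). Those called higher were 5 in the main fit, 6 with library totals and 6 without infarct 3 or contralateral cortex 3. Without a fold threshold 7 regulators were higher. Among the 8 heavy chain members alone, the differences in share were 8.69 (*H2-K1*), 14.3 (*H2-D1*), -0.188 (*H2-Q4*, reversed), -20.4 (*H2-T22*), -1.19 (*H2-T23*) and -3.46 (*H2-M3*) percentage points, and with length-scaled counts -9.56 (*H2-T22*) and -3.61 (*H2-M3*). The shares are of fewer or rescaled counts there, and the cause of the other changes was not tested.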
